A study of Mus musculus with 24 samples.

Results

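Single haematopoietic stem cells (HSCs) were split by how brightly they fluoresced in the Alexa Fluor 700 channel of the cell sorter, and the transcripts of the brightest and the faintest cells were compared. Within each of 4 sort plates, the 20% of cells with the highest recorded Alexa Fluor 700 value formed the high side and the 20% with the lowest value the low side. The 2 sides held 285 cells each, 570 of the 1430 cells with a sort record. A further 850 cells lay between them, and 10 cells to which the record gives the group number 1 were left out. All cells came from mice of the strain -60/DR5-TA-RA-CFP, which carries a cyan fluorescent protein (CFP) reporter of retinoic acid response. They had been sorted as lineage-negative, Sca-1 and Kit positive (LSK), CD150+ and CD48- with mixed CFP brightness. No treatment, age or sex is given in the labels, and high and low cells differed by no experimental step. Alexa Fluor 700 is a far-red dye that is coupled to an antibody. The sources used here do not name that antibody, so the split is described by the dye and by the genes that moved with it.

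HSCs sit at the top of the blood lineage tree, and most of them are out of the cell cycle at any time. Deeply resting HSCs are known for genes such as Procr, Hlf, Mllt3 and Ifitm1, while HSCs that enter the cycle make ribosomes, replicate DNA with new histones and then express the mitotic machinery. Major histocompatibility complex (MHC) class II molecules present peptides to T cells and are best known from B cells, dendritic cells and macrophages; their invariant chain is encoded by Cd74.

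The recorded brightness was the log10 of a whole channel number. The median channel number was 315 to 322 on the low side and 495.5 to 501 on the high side of the 4 plates. At the lower bound, the low side ended at 335 to 342 and the middle cells began at 337 to 343. At the upper bound, the middle cells ended at 469 to 476 and the high side began at 469 to 476, so the sides are ranges of a continuous value and not cell types.

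Unique molecular identifier (UMI) counts were summed per plate and side. The sums held 89158 to 100104 UMIs on the high side and 108825 to 128648 on the low side. The plates count as technical repeats of a single pool of cells, since no file ties a well to 1 of the 8 labelled single-cell samples. Errors and p-values below therefore concern plates and not mice, and a stricter reading takes the table as 1 sample without a test. In the edgeR gene test used below, most of a gene's spread was borrowed from other genes, with 92.2 prior against 6 residual degrees of freedom. The middle cells count in those 6. The SE of a fold change was derived from that test, so its small p-values do not rest on the plates of a gene alone. Plate 2 stood apart from the others: 99 of the 3054 genes tested were more than 4-fold lower there than in each of plates 3, 4 and 5, and none was more than 4-fold higher. Among these 99 were 12 genes called below, such as Ifitm1, Ifitm3, Ly6e, Sult1a1, Mki67, Eef1a1, Rpl23, Rpl26 and Rpl30. High and low cells were compared within plates, and results for those of these genes that are described are given with and without plate 2.

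Of the 3054 genes tested, 192 passed an adjusted p of 0.05 in edgeR's quasi-likelihood test with the plate as a block (6.29%), and these are the genes said to be called, to rise or to fall. On the high side, 109 were higher (3.57%) and 83 were lower (2.72%). These shares of all tested genes are the background for the counts of called list members below. The lists were chosen with earlier results of these data known, so such counts are descriptions and no separate support. The direction was the same in all 4 plates for 176 of the 192. The median log2 fold change of all tested genes was -0.001. Cd74 and H2-Eb1, of antigen presentation, had the largest increases, and Hist1h1b and Hist1h1a, of chromatin, the largest declines. The 4 high and 4 low values did not overlap for 100 of the 192 genes and for 196 of all 3054. DESeq2 called 91 genes (2.98%), 63 higher and 28 lower, and scaling by library size alone called 90 higher and 105 lower (6.39%). Genes to which DESeq2 gave no adjusted p count as not called here and below. Of the 96 named called genes, 68 had a DESeq2 value. Without the plate as a block, 14 genes were called (0.458%), and 122 were called without plate 2 (3.93%), 114 of them among the 192.

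**Figure D1:**
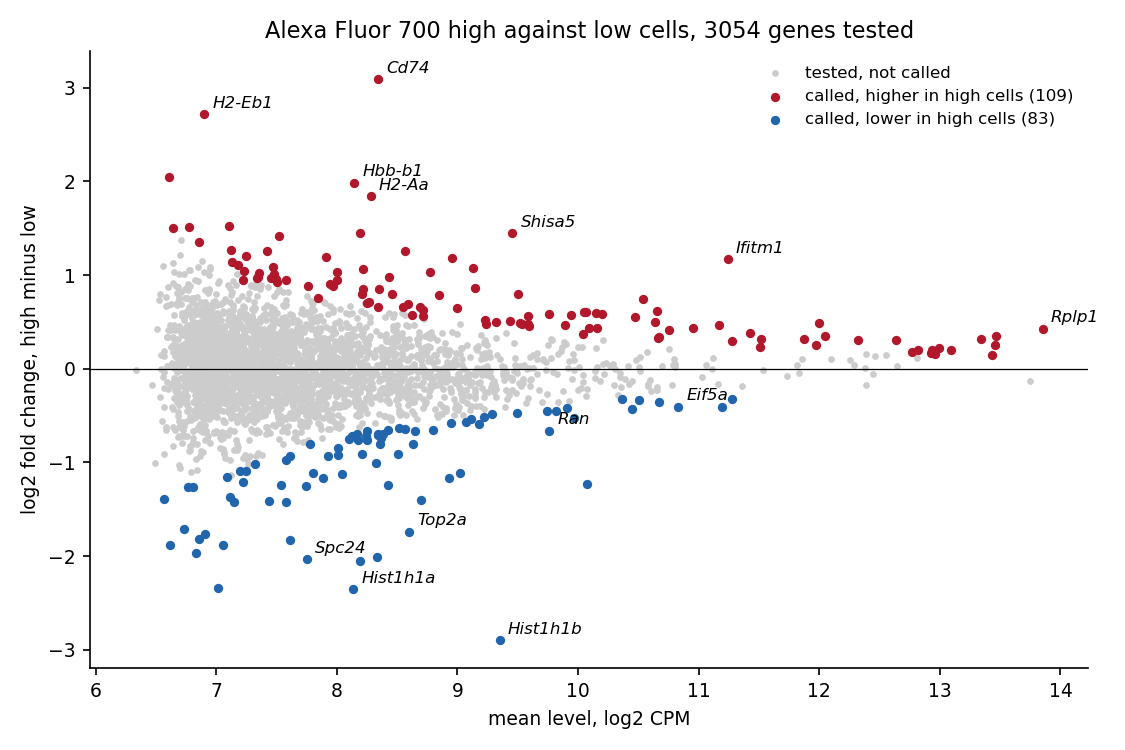
The log2 fold change (high minus low) of each of the 3054 tested genes is plotted against its mean level in log2 CPM, with called genes in red (109 higher) and blue (83 lower). Cd74 and H2-Eb1 lie at the top and Hist1h1b at the bottom, while the abundant Rplp1 is called at a small fold change.

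The 2 largest increases were in MHC class II genes, Cd74 and H2-Eb1. Of the 9 genes of the class II list, 6 passed the filter on low counts, 4 rose and 0 fell, and the median log2 fold change of the 6 was 1.40. Among all tested genes, 3.57% rose. Cd74 had 612, 915, 886 and 688 CPM (counts per 1000000 UMIs of tested genes, scaled by TMM) in the high cells of plates 2, 3, 4 and 5. In the low cells it had 119, 123, 79.9 and 38.3 CPM. Every high value was above every low value, and Cd74 rose 8.55-fold (log2 fold change 3.10 ± 0.23, SE; edgeR adjusted p = 2.3e-21). H2-Aa, the alpha chain of the class II molecule I-A, had 421, 572, 567 and 384 CPM in high and 168, 71.9, 91.4 and 201 CPM in low cells. The sides of H2-Aa did not overlap either, and it rose by 1.84 ± 0.24 (adjusted p = 1.9e-09). H2-Eb1, the beta chain of I-E, had 272, 229, 263 and 66.1 CPM in high and 0, 71.9, 34.3 and 19.1 CPM in low cells. Its high value in plate 5 fell below the low value in plate 3, and it rose by 2.72 ± 0.46 (adjusted p = 6e-06).

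H2-Ab1, the beta chain of I-A, had 258, 280, 111 and 159 CPM in high and 119, 103, 57.1 and 134 CPM in low cells. It was higher in each plate (0.95 ± 0.31, adjusted p = 0.047), but its call was lost without plate 2, 3 or 4 (adjusted p of 0.081 to 0.32). At least 1 Cd74 UMI was found in 100 of the 285 high cells and in 31 of the 285 low cells. The 10 high cells with the most held 33.9% of the Cd74 UMIs of their side. The 233 UMIs of the high side included up to 21 in a single cell, against 35 UMIs and at most 3 in a cell on the low side. After each cell was thinned to 1000 UMIs, 55 of 200 high and 18 of 220 low cells had a Cd74 UMI. H2-Aa was found in 90 high and 39 low cells.

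Since class II genes are also expressed by mature lymphocytes, markers of those cells were counted. Of 21 genes of the B, T and NK cell list that the table holds, 12 had a UMI in any cell. Of these, 6 were tested and 5 rose, against 3.57% of all tested genes. With no filter, 4 of 12 rose, and 1.21% of all genes were called in either direction. Among the 5 were Cd74, H2-Aa and H2-Eb1, which are also counted in the class II list. The others were Ptprcap, a partner of the CD45 phosphatase (0.50 ± 0.09, adjusted p = 5.2e-05), and the cytokine gene Ltb (1.26 ± 0.34, adjusted p = 0.01). The call of Ltb was lost without plate 2, 3 or 5 (adjusted p of 0.051 to 0.065). Of the 21 genes, 9 were at 0 UMIs in all 1420 cells, among them the B cell genes Ms4a1 and Cd79a and the T cell genes Cd3d, Cd3e, Cd3g and Cd8a. Among those with UMIs, Cd79b had 36 in high, 111 in middle and 32 in low cells. Nkg7, a granule gene of NK and cytotoxic T cells, had 4, 42 and 21 UMIs in the same order, more in low than in high cells, and the T cell coreceptor gene Cd4 had 3, 8 and 1. The list as a whole took 0.252 to 0.313% of all UMIs of the high side per plate and 0.135 to 0.169% of the low side. These shares include the class II genes Cd74, H2-Aa and H2-Eb1. They had 233, 146 and 62 of the list's 1110 UMIs in high cells, and 35, 53 and 12 of its 705 in low cells. Mast cell and basophil genes had 0 UMIs on either side.

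The promoters of H2-Eb1 and H2-Aa are shown because both genes rose, and class II promoters are known for an X box and a CCAAT-type Y box. Sequences are from RefSeq (GRCm38.p6), run from 250 bases before to 50 after the annotated start and are given 5′ to 3′ on the strand of the gene. Capitals mark CCAAT and an X-box form, each searched on both strands. The X-box form is the first run of capitals in H2-Eb1, with any base allowed at the ninth position. H2-Eb1 lies on the plus strand (chr17:34305617-34305916) and H2-Aa on the minus strand (chr17:34287774-34288073).
H2-Eb1: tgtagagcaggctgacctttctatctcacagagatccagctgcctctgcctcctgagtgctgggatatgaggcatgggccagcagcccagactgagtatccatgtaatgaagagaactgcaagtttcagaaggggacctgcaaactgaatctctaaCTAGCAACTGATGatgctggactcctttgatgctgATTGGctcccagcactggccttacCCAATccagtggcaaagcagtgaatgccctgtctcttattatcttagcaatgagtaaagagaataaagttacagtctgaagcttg
H2-Aa: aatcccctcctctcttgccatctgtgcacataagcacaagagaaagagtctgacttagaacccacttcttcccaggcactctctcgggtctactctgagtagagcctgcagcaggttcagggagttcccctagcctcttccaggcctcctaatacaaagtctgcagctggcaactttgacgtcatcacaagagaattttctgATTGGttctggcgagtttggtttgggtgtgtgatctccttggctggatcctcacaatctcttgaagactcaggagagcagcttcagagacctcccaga
In H2-Eb1 the X-box form began 94 bases before the start, with CCAAT motifs at 59 and 35 bases before it. H2-Aa held a reversed CCAAT 48 bases before the start and no such X-box form. The form leaves a single position free, so not finding it does not mean that a promoter lacks an X box. The X-box form was found in 3 of 32851 promoters in all, and CCAAT in 37.4%.

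**Figure D2:**
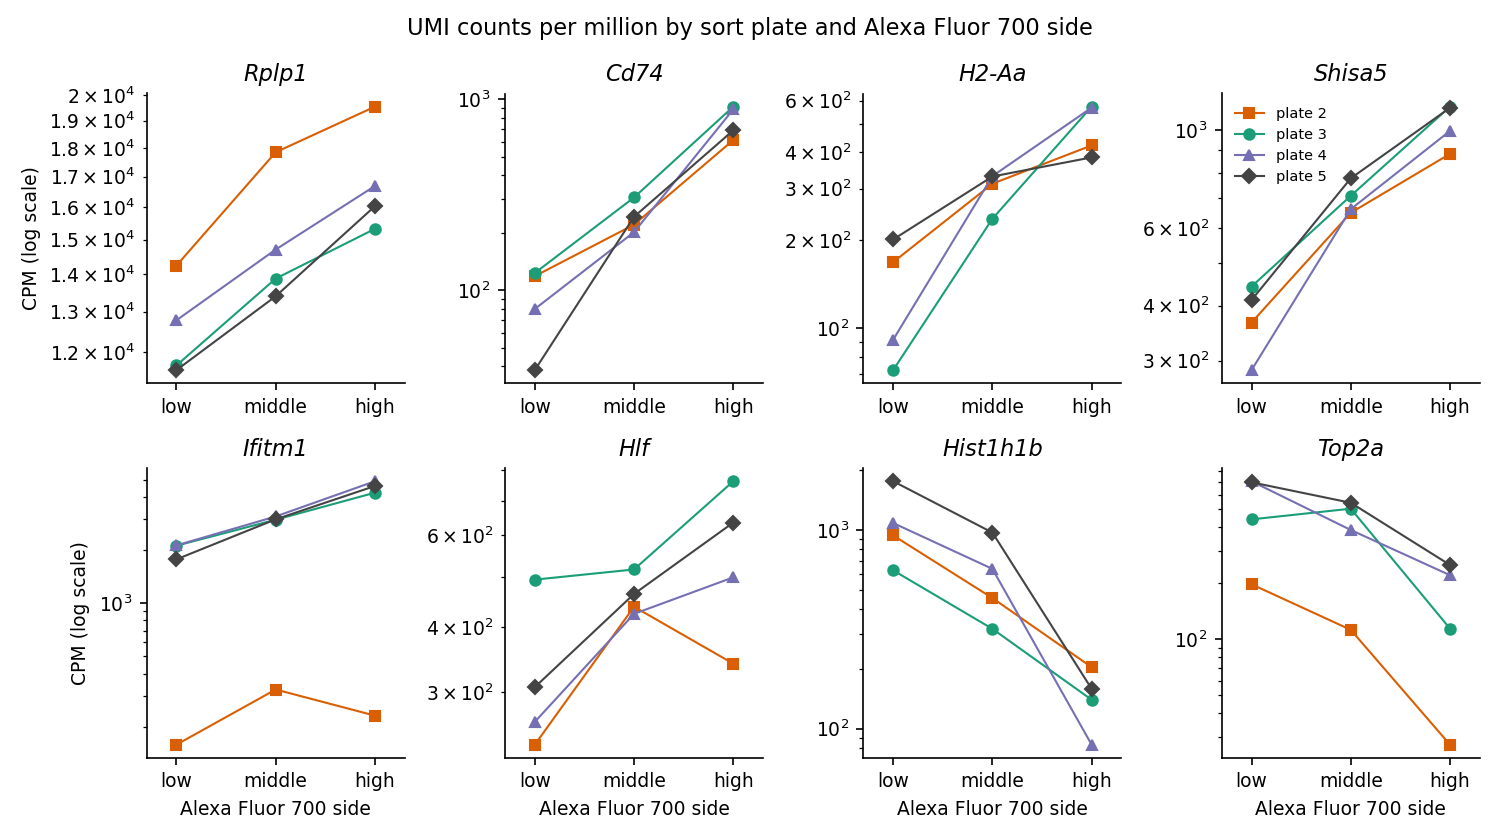
CPM (log axis) of 8 genes are plotted for the low, middle and high Alexa Fluor 700 cells, with a line for each of the 4 sort plates. Cd74, H2-Aa, Shisa5 and Rplp1 climb and Hist1h1b descends at both steps in each plate; Top2a is lowest in the high cells of each plate, with its middle cells highest in plate 3. Plate 2 lies far below the others for Ifitm1.

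Part of the HSC list rose in high cells. Of the 36 genes of the HSC list, 23 were tested, 12 rose and 0 fell, against 3.57% of all tested genes that rose. Since the list was chosen with earlier results of these data known, its count is a description and no separate support. Of the 23 fold changes, 21 were positive, with a median of 0.71. Without plate 2, 22 were tested, 9 rose and 0 fell (median 0.65). DESeq2 called 8 of the 23, and 2.98% of all tested genes, with genes that it gave no adjusted p counted as not called. With high and low cells paired on UMIs per cell, 3 of 20 rose (median 0.50), and 4 of 20 did after the cells with the most S-phase and G2/M UMIs were removed (median 0.49). Of all genes tested in these settings, 1.93% and 2.17% were called in either direction. The list took 0.837 to 1.46% of the UMIs of a plate on the high side and 0.655 to 0.946% on the low side. Procr, the endothelial protein C receptor that marks long-term HSCs, had 163, 330, 194 and 198 CPM in high and 39.6, 123, 68.5 and 76.6 CPM in low cells. The sides did not overlap, and Procr rose by 1.52 ± 0.34 (adjusted p = 0.0012).

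Hlf, a transcription factor of HSC self-renewal, had 340, 762, 498 and 635 CPM in high and 237, 493, 263 and 306 CPM in low cells. Each plate had more on its high side, but the plates overlapped across sides, and the rise was 0.78 ± 0.18 (adjusted p = 0.0016). Gimap6, a GTPase gene (1.03 ± 0.17, adjusted p = 6e-06), and Tmem176b, a membrane protein gene (0.56 ± 0.10, adjusted p = 1.3e-05), had sides that did not overlap. Pdzk1ip1 rose by 0.58 ± 0.12, a call lost without plate 5 (adjusted p = 0.061).

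The super elongation cofactor Mllt3 rose by 1.03 ± 0.24 but was not higher in plate 2, and its call was lost without plate 4 or 5 (adjusted p of 0.078 to 0.083). Sult1a1, a sulfotransferase gene, rose by 2.05 ± 0.51 on few counts (37 UMIs in high and 11 in low cells), and its call was lost without plate 4 (adjusted p = 0.22) but not without plate 2 (2.17 ± 0.50). Trim47 (0.90 ± 0.24) and the transcription factor Lmo2 (0.37 ± 0.11) rose as well. Trim47 lost its call without plate 2 or 5 (adjusted p of 0.06 to 0.27) and Lmo2 without any 1 plate (0.059 to 0.14). Mycn, also on the list, did not pass (0.71 ± 0.25, adjusted p = 0.075). Of the 14 genes of the multipotent progenitor list 3 were tested and 0 were called.

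Genes of the sort gate were read directly. Ly6a, which encodes Sca-1, had 8, 13, 5 and 2 UMIs in the high cells of plates 2 to 5 and 2, 4, 3 and 0 UMIs in the low cells. These 28 against 9 UMIs were too few for the filter. With no filter, in a fit of 13132 genes of which 159 were called (1.21%), Ly6a was higher by 1.92 ± 0.55 (edgeR adjusted p = 0.039). Since Ly6a was given as a marker from earlier results of these data, this p is no separate support. After thinning, 13 of 200 high and 4 of 220 low cells had a Ly6a UMI, 6.22 ± 4.16% against 1.86 ± 1.58% (SD, n = 4 plates). The difference of 4.37 points was positive in 4 of 4 plates, with an exact two-sided sign-flip permutation p of 0.12, the smallest that 4 plates allow. Without thinning, 23 of 285 high and 9 of 285 low cells had one. No cell type that lacks Ly6a was sorted, so a background share was not measured. From UMIs summed over plates, the log2 ratio of Ly6a between bright and faint cells was 1.96 for Alexa Fluor 700. For other dyes of the sort record it was -2.31 (PE-Cy7), -1.96 (APC-Alexa Fluor 750), -1.38 (CFP), -1.10 (PE), -0.89 (DAPI), -0.71 (APC) and 0.27 (PE-Cy5). These ratios rest on 7 to 29 UMIs a side, and a difference of this size was not particular to Alexa Fluor 700.

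Kit, the stem cell factor receptor of the gate, had 544, 305, 443 and 661 CPM in high and 534, 267, 251 and 431 CPM in low cells and did not pass (0.40 ± 0.18, adjusted p = 0.22). Slamf1, which encodes CD150, had 5 UMIs in high and 14 in low cells, and Cd48 had 0 on both sides, which are counts too low to compare. The ribosomal P-stalk gene Rplp1, given with Ly6a as a marker of the split from earlier results of these data, is described with the ribosomal genes below.

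Interferon-inducible genes made up a smaller group. On the interferon list 19 genes were tested, and 4 rose while 0 fell (median 0.47), against 3.57% of all tested genes that rose. Ifitm1 and Ifitm3 are on the HSC list as well, and 4 of 19 rose without plate 2 (median 0.52). Ifitm1, a membrane gene that restricts viruses and is high in HSCs, had 4219, 4898 and 4603 CPM in the high cells of plates 3, 4 and 5 and 2116, 2124 and 1771 CPM in the low cells. In plate 2 it had 231 and 158 CPM. The sides did not overlap among plates 3 to 5, plate 2 was lower than either, and Ifitm1 rose by 1.17 ± 0.08 (adjusted p = 1.2e-21), or by 1.20 ± 0.08 without plate 2.

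Ifitm3 had 81.6, 2897, 2505 and 2421 CPM in high and 69.3, 1490, 1713 and 1474 CPM in low cells of plates 2 to 5, and it rose by 0.74 ± 0.10 (adjusted p = 1.3e-08; 0.76 ± 0.10 without plate 2). Ly6e, a GPI-anchored relative of Sca-1, rose by 0.47 ± 0.08 (adjusted p = 1.6e-05), with 354 against 396 CPM in plate 2 and 3253 to 3849 against 2353 to 2661 CPM in the others. Plate 2 was thus at odds with the other 3 plates for Ly6e, whose rise was 0.52 ± 0.08 without it.

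On the MHC class I list 9 genes were tested, and 3 rose, 0 fell and 6 did not pass (median 0.22, with 7 fold changes above 0). The share of all tested genes that rose was 3.57%. Without plate 2, 1 rose, and 3.93% of all tested genes were called in either direction. H2-K1, a classical class I heavy chain, had 2393, 2313, 2339 and 1931 CPM in high and 1731, 1541, 1747 and 1618 CPM in low cells, with no overlap (0.43 ± 0.09, adjusted p = 0.00013). H2-D1 rose by 0.32 ± 0.10, and an entry that joins H2-T10, H2-T22, H2-T9 and H2-T23 rose by 0.48 ± 0.13; these genes are close copies, and how the counting shared reads between them was not stated in the sources used here. Without plate 2 neither passed (adjusted p = 0.073 and 0.068). Shisa5, a p53-inducible gene of the endoplasmic reticulum that is on none of the lists, had 884, 1131, 996 and 1124 CPM in high and 366, 442, 285 and 412 CPM in low cells. No plate overlapped, and Shisa5 rose 2.73-fold (1.45 ± 0.14, adjusted p = 4.2e-14).

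The Ifitm3 promoter is shown because it holds 2 copies of GAAA followed, after any 2 bases, by GAAA (searched on both strands), a form of the interferon-stimulated response element that is known from interferon-inducible genes (capitals; RefSeq GRCm38.p6, chr7:141010695-141010994, minus strand).
Ifitm3: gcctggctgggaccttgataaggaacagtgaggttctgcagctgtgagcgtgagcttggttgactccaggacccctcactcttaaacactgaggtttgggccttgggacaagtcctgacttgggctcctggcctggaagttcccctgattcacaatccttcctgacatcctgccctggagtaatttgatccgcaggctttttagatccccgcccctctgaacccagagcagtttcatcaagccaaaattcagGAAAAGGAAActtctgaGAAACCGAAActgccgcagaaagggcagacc
The copies began at 2 and 19 bases from the annotated start, counted from 1. The motif was in 3.44% of all promoters, in 3.31% of those of tested genes, in 7.63% of those of genes that rose (9 of 118 promoters) and in 2.74% of those of genes that fell (2 of 73), which is a description of few matches.

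Some ribosomal protein genes rose, by small amounts. Among 30 tested large-subunit genes, 10 rose, 0 fell and 20 did not pass (median 0.17), and among 24 small-subunit genes, 7 rose, 0 fell and 17 did not pass (median 0.15). Of all tested genes, 3.57% rose. Scaling by library size alone moved the medians to 0.13 and 0.10, and 1 small-subunit gene was then called lower. Rplp1, an acidic protein of the ribosomal P-stalk that recruits translation factors, had 19538, 15325, 16688 and 16031 CPM in high and 14247, 11681, 12779 and 11574 CPM in low cells. Every high value was above every low value, although plate 2 was the highest on both sides, and Rplp1 rose 1.34-fold (0.43 ± 0.04, adjusted p = 4.3e-14).

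Rps14 had 14045, 11475, 12136 and 12698 CPM in high and 10645, 8322, 10563 and 9956 CPM in low cells and rose by 0.35 ± 0.05 (adjusted p = 4.1e-09). Rps9 (0.32 ± 0.05) also had sides that did not overlap. Rpl26 (0.49 ± 0.07) and Rpl30 (0.62 ± 0.10) rose in plates 3 to 5 and were lower on the high side in plate 2, where their levels were far below those of the other plates: Rpl30 had 81.6 and 109 CPM there, against 2513 to 2795 and 1582 to 1839 CPM. Without plate 2, Rpl26 rose by 0.55 ± 0.06, Rpl30 by 0.65 ± 0.09 and Rpl23 by 0.32 ± 0.06. The second P-stalk gene called was Rplp0 (0.20 ± 0.05), whose call was lost without plate 3 (adjusted p = 0.1). With the sides matched on UMIs per cell, 3 of 27 large-subunit and 1 of 22 small-subunit genes were called, against 1.93% of all genes tested.

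Translation factors moved both ways, 5 of 31 up and 2 down (median -0.003), against 3.57% up and 2.72% down among all tested genes. The elongation factors Eef1a1 (0.31 ± 0.06, and 0.33 ± 0.06 without plate 2) and Eef2 (0.25 ± 0.06) rose, Eef2 not passing without plate 2 (adjusted p = 0.058). Eef1b2 (0.23 ± 0.07), Eif3f (0.34 ± 0.09) and the ribosomal scaffold Gnb2l1 (0.16 ± 0.05, higher in 2 of 4 plates) rose near the threshold and lost their calls without plate 3 or 5, Eef1b2 also without plate 4 (adjusted p of 0.054 to 0.49). Eif5a, which eases stalled elongation, fell from 2246, 1726, 1884 and 2336 CPM in low to 1496, 1423, 1605 and 1680 CPM in high cells, with no overlap (-0.40 ± 0.09, adjusted p = 0.001, and 0.059 without plate 2). Eif4a1, the helicase of cap-dependent initiation, fell by 0.59 ± 0.16, and not without plate 4 (adjusted p = 0.26).

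Among the genes that fell were histone and mitotic genes. No histone list had been drawn up, and the 8 tested entries whose symbol begins with Hist were counted after their values were seen: all 8 fell, by log2 fold changes of -2.89 to -1.23. Of all tested genes, 2.72% fell. The filter can keep an entry through its counts outside the high cells, so the 8 are no neutral set. With no filter, 11 of 54 such entries fell and 0 rose, and 44 fold changes were below 0 (range -4.16 to 2.18). In that fit, 1.21% of all genes were called in either direction. With the cells paired on UMIs per cell 7 of 8 fell (median -1.33, against -2.03). Hist1h1b, a replication-dependent linker histone, had 204, 140, 83.0 and 159 CPM in high and 940, 627, 1085 and 1762 CPM in low cells. The sides were far apart, and Hist1h1b was 7.44-fold higher in low cells (-2.89 ± 0.19, adjusted p = 6.1e-24). Hist1h1a (-2.35 ± 0.29) and Hist1h1d (-2.05 ± 0.26), further linker histones, and the core histone genes Hist1h2ae (-2.02 ± 0.25) and Hist1h2bc (-2.34 ± 0.44) were also among the 10 genes with the largest declines. The histone genes of this cluster are near copies of each other, and how their reads were shared was not stated in the sources used here. A Hist1h1b UMI was found in 67 of the 285 low cells and 29 of the 285 high cells. The 10 low cells with the most held 55.4% of the 435 UMIs of that side. Hist1h2bc went against its group in plate 5, with 26.5 CPM in high and 28.7 CPM in low cells, against 27.2 to 76.2 and 251 to 298 CPM in the other plates.

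Among G2/M genes, 16 of 22 that were tested fell and 0 rose, with a median of -1.26 and all 22 fold changes below 0. Of all tested genes, 2.72% fell. Without plate 2, 9 of 25 fell (median -1.26). DESeq2 called 2 of the 22, with a median of -1.31, and 2.98% of all tested genes. Since genes that it gave no adjusted p count as not called, the 2 do not mean that the others were tested and failed. With the cells paired on UMIs per cell, 11 were tested and 1 fell (median -0.59), against 1.93% of all genes called in either direction. The list took 0.210 to 0.305% of a plate's UMIs on the high side and 0.456 to 0.638% on the low side. Top2a, the topoisomerase that untangles replicated chromosomes, had 27.2, 114, 221 and 251 CPM in high and 198, 442, 708 and 699 CPM in low cells. It was lower on the high side of each plate, with plate 2 lowest on both sides, and fell by 1.74 ± 0.23 (adjusted p = 5.9e-09). Ccnb2, a mitotic cyclin, had 13.6, 25.4, 41.5 and 79.4 CPM in high and 89.0, 164, 183 and 191 CPM in low cells, with no overlap (-1.97 ± 0.45, adjusted p = 0.0013).

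Further mitotic genes that fell were Ube2c, of the ubiquitin ligase that ends mitosis (-1.83 ± 0.33), the kinetochore gene Spc24 (-2.03 ± 0.31), the centromeric histone Cenpa (-1.89 ± 0.41), the chromatin protein Hmgb2 (-1.11 ± 0.17) and the proliferation marker Mki67 (-1.89 ± 0.55). Ube2c turned direction, without passing, when the split was corrected for APC-Alexa Fluor 750, a dye described below (0.74), or for APC and that dye (1.03), and among cells above the median of that dye (0.71). Mki67 rested on 8 UMIs in high and 39 in low cells and lost its call without plate 3 or 5 (adjusted p of 0.054 to 0.25), and was at -2.14 ± 0.58 without plate 2. The kinase Cdk1 fell by 1.25 ± 0.32, with 13.8 against 343 CPM in plate 4, without which it did not pass (adjusted p = 0.31). The motor genes Kif11 (-1.76 ± 0.44) and Kif22 (-1.71 ± 0.46) and the survivin gene Birc5 (-1.42 ± 0.38) did not pass without plate 2 (adjusted p of 0.087, 0.13 and 0.085). Cdca8 (-1.42 ± 0.32) fell, and Ckap2l (-1.82 ± 0.44) fell but not without plate 5 (adjusted p = 0.1). Ncapd2, Racgap1, Cks1b and Tmpo (-1.27 to -0.80) each lost their calls without at least 2 of the plates.

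Of 32 S-phase genes tested, 3 fell and 0 rose (median -0.43), against 2.72% of all tested genes that fell. Below 0 were 29 of the 32 fold changes. With the cells paired on UMIs per cell, 0 of 24 were called by edgeR, with a median of -0.07 and 10 fold changes above 0. DESeq2 called 1 of the 32, near the 2.98% that it called of all tested genes. Genes that it gave no adjusted p again count as not called. Thymidine kinase Tk1 had 136, 102, 166 and 92.6 CPM in high and 228, 349, 263 and 268 CPM in low cells, with no overlap (-1.17 ± 0.27, adjusted p = 0.002, and 0.073 without plate 3). The histone chaperone Nasp (-0.92 ± 0.25) did not pass without plate 4 or 5 (adjusted p of 0.052 to 0.22), and the dUTPase Dut (-0.66 ± 0.19), which was higher on the high side in plate 2, did not pass without plate 3 or 5 (0.12 to 0.37). Per cell, S and G2/M lists together took 0.791 ± 0.0590% of 1000 thinned UMIs on the high side (200 cells) and 1.21 ± 0.170% on the low side (220 cells; SD, n = 4 plates). The share was lower on the high side in 4 of 4 plates (exact sign-flip permutation p = 0.12). With the cells richest in these UMIs left out, 43 of 1981 genes were called (2.17%), 35 of them higher and 8 lower. Since the cells were left out for these UMIs, the fall to 14 tested S-phase and 4 tested G2/M genes, with 0 called, follows from the selection and is no result.

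The promoters of Ube2c and Ccnb2 are shown because both fell in the comparison of the recorded dye, and promoters of mitotic genes are known for CCAAT boxes and for a cell-cycle homology region, TTTGAA. Both motifs are in capitals on either strand (RefSeq GRCm38.p6; Ube2c at chr2:164769679-164769978 on the plus strand, Ccnb2 at chr9:70421505-70421804 on the minus strand). In Ube2c, CCAATTGG is a pair of overlapping CCAAT matches on opposite strands.
Ube2c: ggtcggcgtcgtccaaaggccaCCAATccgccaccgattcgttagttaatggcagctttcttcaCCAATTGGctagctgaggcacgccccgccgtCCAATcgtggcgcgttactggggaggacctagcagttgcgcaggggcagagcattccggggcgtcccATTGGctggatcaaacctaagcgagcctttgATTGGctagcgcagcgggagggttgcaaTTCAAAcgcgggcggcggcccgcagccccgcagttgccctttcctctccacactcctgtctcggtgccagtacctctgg
Ccnb2: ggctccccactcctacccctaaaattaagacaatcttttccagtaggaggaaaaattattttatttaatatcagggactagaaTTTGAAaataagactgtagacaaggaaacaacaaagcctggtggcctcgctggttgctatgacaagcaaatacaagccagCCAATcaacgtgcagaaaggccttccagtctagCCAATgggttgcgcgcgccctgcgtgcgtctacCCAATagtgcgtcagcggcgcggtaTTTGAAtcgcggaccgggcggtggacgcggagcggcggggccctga
Ube2c held 6 CCAAT matches and 1 TTTGAA, and Ccnb2 held 3 and 2. TTTGAA was in 31.5% of the promoters of genes that fell (23 of 73), in 14.4% of those of genes that rose (17 of 118), in 11.9% of those of tested genes and in 17.9% of all promoters. CCAAT was in 54.8%, 42.4%, 37.1% and 37.4% of the same sets. Promoters were matched for 59 of the 83 genes that fell and 90 of the 109 that rose.

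**Figure D3:**
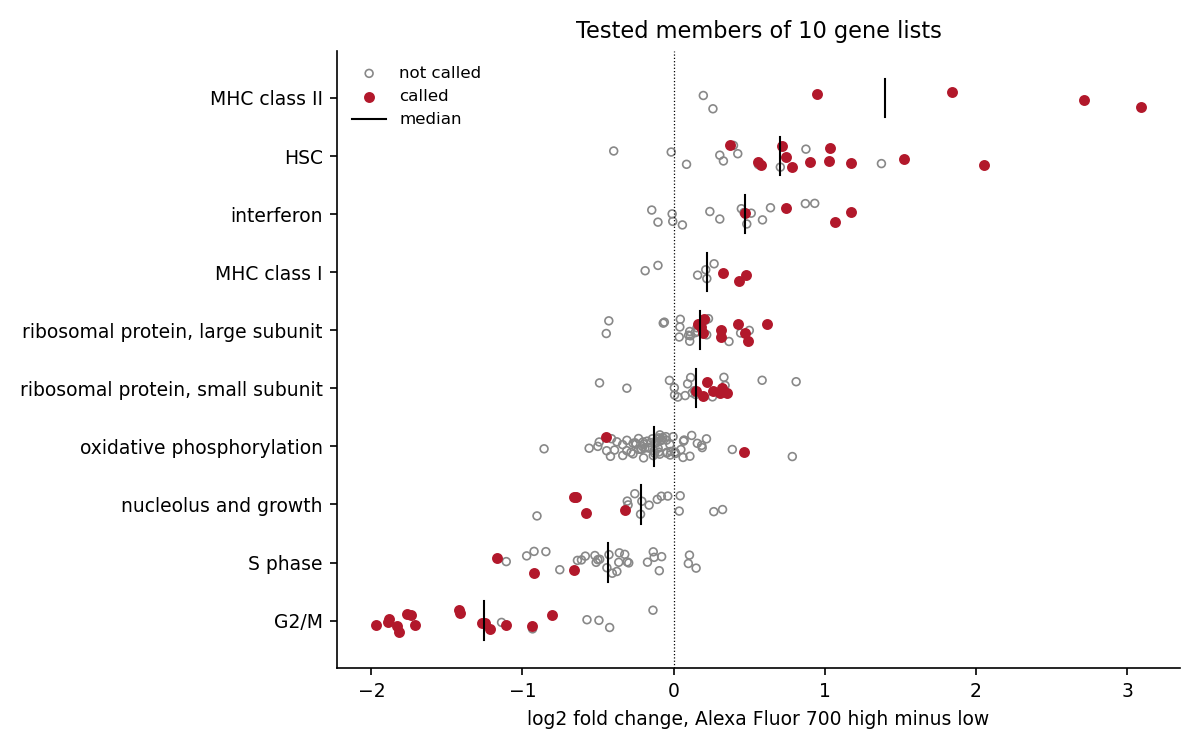
The log2 fold change (high minus low) of each tested member of 10 gene lists is shown as a point, filled in red where called, with the list's median as a bar. The MHC class II and HSC lists have no called gene to the left of 0, and the S-phase and G2/M lists have none to the right.

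Among genes of the nucleolus and of growth, 18 were tested, with 4 lower and 0 higher (median -0.21). Ran, the GTPase of nuclear transport, had 707, 546, 678 and 608 CPM in high and 890, 935, 1199 and 1005 CPM in low cells, with no overlap (-0.66 ± 0.13, adjusted p = 0.00012). Nucleolin Ncl fell by 0.32 ± 0.08, with 1931 to 2475 CPM in high and 2548 to 2958 CPM in low cells, but not without plate 3 or 5 (adjusted p of 0.058 to 0.13). Nolc1 (-0.64 ± 0.19) and the spermidine synthase Srm (-0.58 ± 0.18) each lost their calls without 3 of the 4 plates in turn.

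Over all tested genes 6.29% were called and 2.72% were called lower, and the lists of this paragraph had 0 to 2 called genes each. In the oxidative phosphorylation list 1 of 70 genes rose and 1 fell (median -0.13): Cox7a2l, of respiratory supercomplexes, rose by 0.47 ± 0.12, and the ATP synthase gene Atp5a1 fell by 0.45 ± 0.13. Cox7a2l did not pass without plate 4 (adjusted p = 0.095), nor Atp5a1 without plate 2 or 4 (0.11 to 0.23). Of 26 proteasome genes, Psmd1 (-0.71 ± 0.23) and Psmb5 (-0.72 ± 0.23) fell, and neither passed without any 1 plate. Of 13 heat shock genes, the mitochondrial chaperonin Hspd1 fell (-0.85 ± 0.25) but not without plate 2, 3 or 5 (adjusted p of 0.078 to 0.27). In the glycolysis list, 0 of 9 genes were called, and Ldhb, with the smallest p, was at 0.67 ± 0.26 (adjusted p = 0.11). In the immediate early list, 0 of 3 were called.

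Single genes of blood lineages moved in different directions. Of all tested genes, 3.57% rose and 2.72% fell. Of 7 tested erythroid genes, the beta globin Hbb-b1 rose and the carbonic anhydrase Car1 fell. Hbb-b1 had 503, 330, 457 and 622 CPM in high and 119, 113, 68.5 and 172 CPM in low cells, with no overlap (1.99 ± 0.24, adjusted p = 2.7e-10). Its 143 UMIs lay in 55 of the high cells, the 10 cells with the most holding 51.0% of them, against 47 UMIs in 38 low cells. The alpha globin Hba-a2, with 55 and 60 UMIs, did not pass (0.27 ± 0.32, adjusted p = 0.74), and Klf1 and Alas2 had at most 11 UMIs on either side. Other erythroid genes had fewer UMIs in high than in low cells, Gata1 with 9 and 31, Epor with 2 and 15 and Aqp1 with 9 and 23. With no filter, 4 of the list's 17 fold changes were positive (median -0.32). Car1 fell by 1.43 ± 0.37, which rested on 771 against 152 CPM in plate 3 (adjusted p = 0.5 without it).

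Itga2b, the megakaryocyte integrin CD41, fell by 1.39 ± 0.44, with 122, 25.4, 41.5 and 26.5 CPM in high and 178, 103, 171 and 115 CPM in low cells, and lost its call without plate 3, 4 or 5 (adjusted p of 0.13 to 0.19). Of 9 tested genes of that list it was the only one lower. Of 5 tested myeloid genes, the granule protease Prtn3 rose by 0.61 ± 0.12, with 1292, 1220, 969 and 1402 CPM in high and 950, 729, 868 and 680 CPM in low cells, which did not overlap.

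In the redox list, Gstm1, a glutathione transferase (1.08 ± 0.16, adjusted p = 2.5e-07), and catalase Cat (0.98 ± 0.30) rose and thioredoxin Txn1 fell (-0.41 ± 0.12) of 14 tested. The shares of all tested genes were 3.57% higher and 2.72% lower. Gstm1 had 870, 661, 720 and 820 CPM in high and 396, 288, 480 and 306 CPM in low cells, with no overlap. Cat did not pass without plate 2, 3 or 5 (adjusted p of 0.052 to 0.18) and Txn1 not without plate 3, 4 or 5 (0.071 to 0.15). Txnip, the thioredoxin-binding protein of the quiescence list, rose by 0.58 ± 0.11 in 4 of 4 plates (adjusted p = 5.9e-05). Of 3 tested genes that mark RNA quality, the nuclear RNAs Malat1 (0.43 ± 0.12) and Snhg12 (1.21 ± 0.31) rose, Malat1 not passing without plate 3 or 4 and Snhg12 not without plate 3 (adjusted p of 0.074 to 0.28). The list took 0.112 to 0.2% of UMIs on the high and 0.0928 to 0.150% on the low side, and its part in the other results was not tested. Of 19 genes of the actin and adhesion list 1 fell, the integrin Itga2b already described.

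Fscn1, an actin-bundling gene (1.51 ± 0.42), Slfn8, of the Schlafen family (1.50 ± 0.45), and Itsn1, an endocytic scaffold (1.44 ± 0.22), completed the 10 largest increases. Itsn1 had 435, 470, 401 and 503 CPM in high and 208, 154, 137 and 163 CPM in low cells, and the sides did not overlap. Fscn1 did not pass without plate 2 or 5 (adjusted p of 0.094 to 0.15) and Slfn8 not without plate 3, 4 or 5 (0.054 to 0.26).

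Levels were also followed in steps across all 1420 cells. With each plate cut into 5 equal parts from faintest to brightest, Cd74 had means of 88.8, 139, 219, 380 and 774 CPM, Shisa5 371, 577, 656, 867 and 1031 CPM, and H2-Aa 131, 219, 278, 418 and 477 CPM. Cd74 thus gained most at the bright end, with its largest step between the last 2 parts. Hist1h1b had 1088, 642, 585, 553 and 147 CPM from faintest to brightest, with its larger steps at both ends and a flat middle. Itsn1 likewise moved mostly at the ends, with 163, 283, 248, 272 and 451 CPM. Of 99 named genes, 41 changed in the same direction at every step and 58 did not, and 213 of 3146 genes (6.77%) were called in a trend over the parts.

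**Figure D4:**
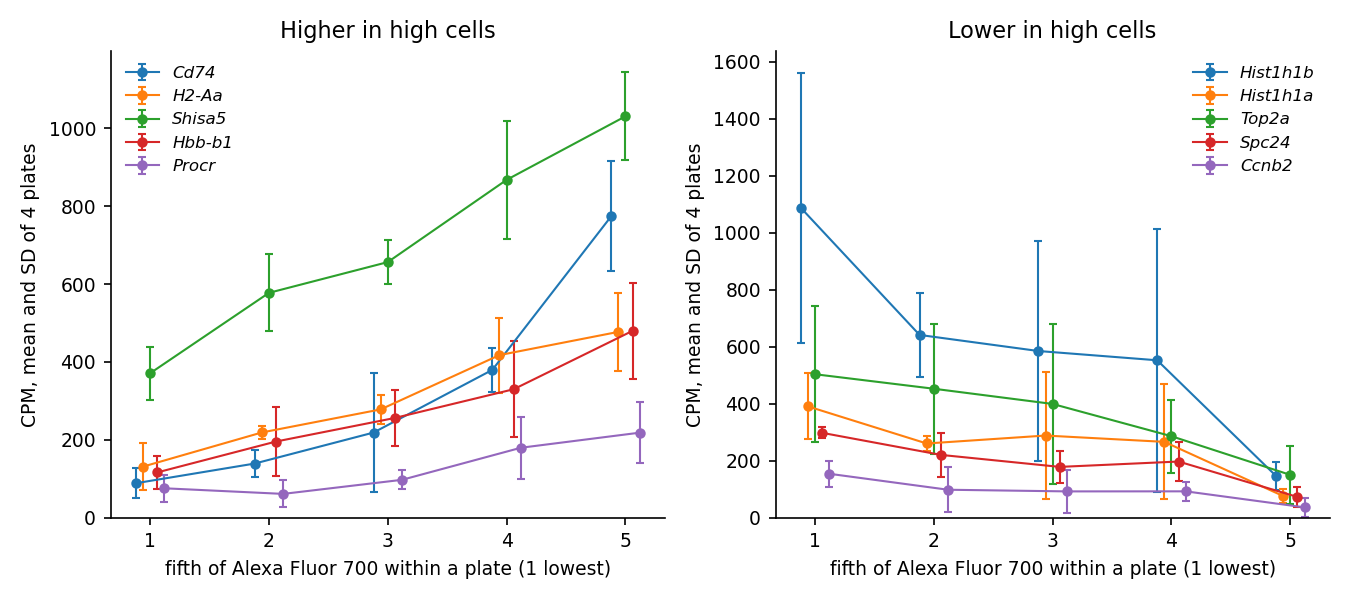
Mean CPM with the SD of 4 plates are plotted for 5 genes that were higher (left) and 5 that were lower (right) in high cells, across 5 equal parts of each plate ranked by Alexa Fluor 700. Cd74 climbs from 88.8 to 774 CPM, and Hist1h1b drops from 1088 to 147 CPM with wide spread between plates in the parts between.

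High and low cells differed in other recorded channels as well. Ranked within plates from 0 to 100%, APC-Alexa Fluor 750 differed by -34.2 ± 3.66 points between high and low cells (high minus low; SD, n = 4 plates), lying between -39.3 and -31.0 in the plates. Across all 1420 cells its rank correlation with Alexa Fluor 700 was between -0.454 and -0.406 in the 4 plates. Of the 285 high cells, 113 were among the 285 lowest in APC-Alexa Fluor 750, and 111 of the 285 low cells were among the 285 highest. PE-Cy5 differed by 17.4 ± 5.56 points and PE-Cy7 by -15.8 ± 3.88 points. DAPI, a DNA and viability dye, differed by -12.9 ± 5.50 points. Forward scatter height, a measure of cell size, differed by 13.1 ± 4.40 points and CFP by -7.50 ± 4.96 points. These 6 channels and forward scatter area moved one way in 4 of 4 plates, 7 of 13 channels in all, each with an exact permutation p of 0.12 (0.232 adjusted over 13 channels).

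Since APC-Alexa Fluor 750 moved with the split, the sides were also cut on the part of the Alexa Fluor 700 rank that the rank of APC-Alexa Fluor 750 does not carry, an alternative chosen after seeing the data. Of 2965 genes, 14 were then called (0.472%), 13 higher and 1 lower, all of them among the 192. Cd74 rose by 2.49 ± 0.23, H2-Eb1 by 1.85 ± 0.42, Hbb-b1 by 1.65 ± 0.25, H2-Aa by 1.42 ± 0.24 and Shisa5 by 0.89 ± 0.15. Ifitm1 (0.62 ± 0.08), Ifitm3 (0.54 ± 0.10), Ly6e (0.39 ± 0.08), Gstm1 (0.63 ± 0.16), Rpl26 (0.29 ± 0.06) and Rplp1 (0.21 ± 0.03) were still called higher, and Hist1h2bc (-3.16 ± 0.43) lower. The mitotic genes were not: 0 of 23 G2/M genes were called and their median was -0.05, and Hist1h1b was at -0.54 (adjusted p = 0.23). Of 22 HSC genes, 2 were called, with a median of 0.29.

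Split by APC-Alexa Fluor 750 itself, which shares these cells, 390 of 3536 genes (11%) were called, with Hist1h1b at 2.97 ± 0.18 and Cd74 at -2.30 ± 0.21 in the bright against the faint cells (log2 fold change ± SE). CFP, PE-Cy7 and DAPI had both genes called in the same directions. Between bright and faint cells, Hist1h1b was at 3.03 ± 0.18 and Cd74 at -1.23 ± 0.22 for CFP (406 of 3861 genes called, 10.5%). For PE-Cy7 they were at 2.46 ± 0.19 and -1.98 ± 0.24 (236 of 3268, 7.22%), and for DAPI at 1.59 ± 0.18 and -1.39 ± 0.23 (207 of 3511, 5.9%). For PE (71 of 3074, 2.31%) and APC (18 of 2872, 0.627%), Hist1h1b was higher in bright cells (1.08 ± 0.17 and 1.00 ± 0.18) and Cd74 did not pass. For PE-Cy5 (4 of 2876, 0.139%) neither passed. Of these 7 dyes, none had Cd74 called higher in its bright cells. Cells below and above the median of APC-Alexa Fluor 750 were also split apart, again chosen after seeing the data. Between Alexa Fluor 700 high and low cells, 15 of 1169 genes (1.28%) were called below the median and 12 of 1597 (0.751%) above it, Cd74 and H2-Aa in both. Over the 24 alternative settings of the gene test, Cd74 was called higher in each (log2 fold change 2.16 to 3.38, leaving out the trend, which has another scale) and H2-Aa in each of the 23 that tested it (1.38 to 2.23).

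**Figure D5:**
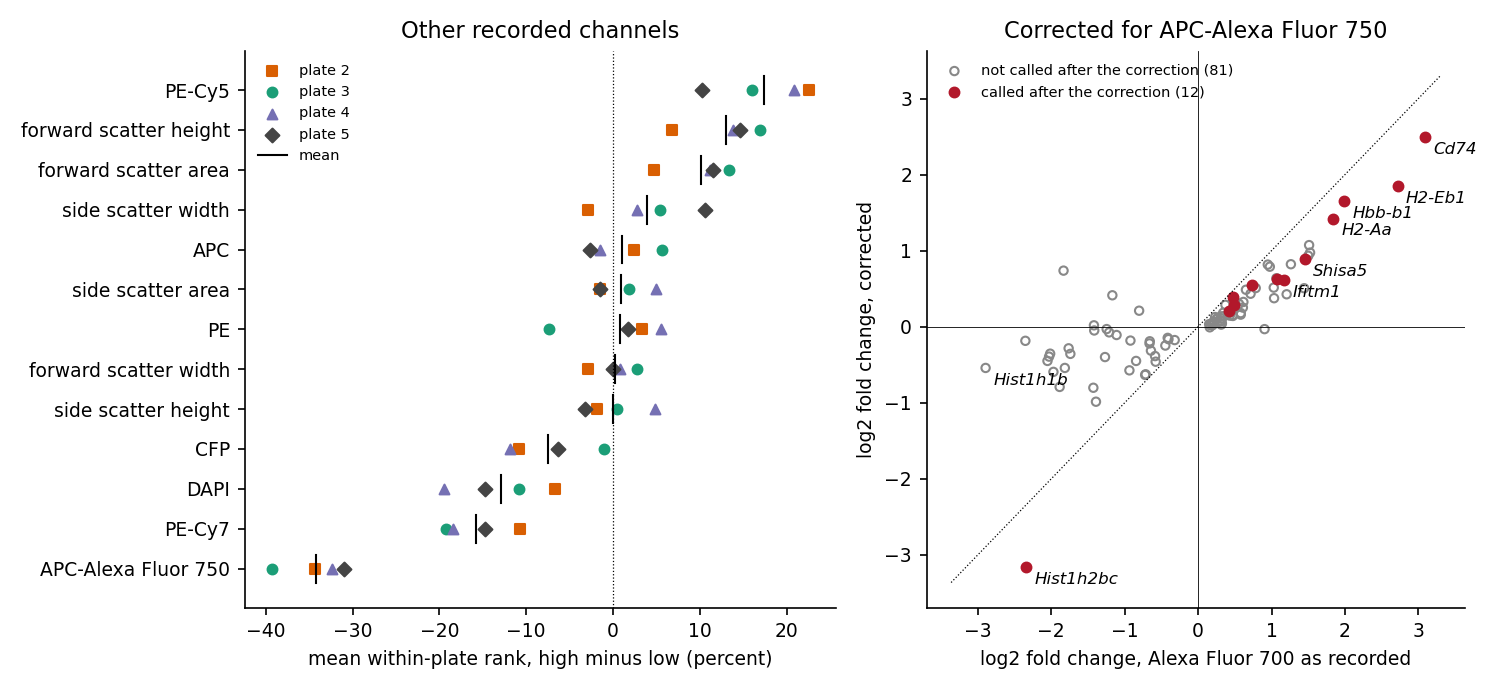
Left, the difference in mean within-plate rank (high minus low, percent) is plotted for 13 other channels, with a point per plate and the mean as a bar. Right, the log2 fold change after the correction for APC-Alexa Fluor 750 is plotted against that of the recorded dye for 93 called genes (12 still called in red; dotted line, equal values): Cd74 and H2-Eb1 stay far from 0 while Hist1h1b moves close to it.

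The deposited record gives each cell a group number, with no meaning stated. Group 9, whose cells had a mean S and G2/M share of 1.86% and a median of 2340.5 UMIs, held 8.11 ± 5.34% of high and 23.2 ± 9.21% of low cells (SD, n = 4 plates). Group 8 held 7.35 ± 1.65% and 15.3 ± 7.04%. Group 4, with a mean share of 0.561%, held 31.3 ± 1.92% of high and 18.4 ± 6.88% of low cells, and group 3 held 17.3 ± 9.0% and 7.34 ± 3.39%. Group 2 held 11.5 ± 8.22% and 4.21 ± 1.12%, with its largest difference in plate 5. These 5 of 9 groups differed one way in 4 of 4 plates (exact permutation p = 0.12, 0.225 adjusted over 9 groups), and 8 did without plate 2.

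Depth differed between the sides too. The median cell held 1196 ± 112 UMIs in high and 1374 ± 136 in low cells, a ratio of 0.873, and was lower on the high side in 4 of 4 plates (exact permutation p = 0.12). With cells of each plate paired on UMIs, 41 of 2126 genes were called (1.93%), 27 higher and 14 lower. Cd74 remained called, and Hist1h1a (-1.52), Hist1h1d (-1.36) and Spc24 (-1.47) were among those that were, while Top2a (-0.86, adjusted p = 0.14), Procr and Hlf were not. List counts under this pairing are given with the HSC, ribosomal, G2/M and S-phase genes. At this depth, a simulation of the comparison with 2900 genes called 14% of genes changed by 0.5, 68.1% of those changed by 1 and 100% of those changed by 2 on the log2 scale. Most changes of 0.5 were thus missed in the simulation, which pooled genes of all levels and had no differences between plates. In the data, abundant genes with smaller changes were called, such as Rplp1 (0.43) and Rps14 (0.35).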

How the data were processed

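UMI counts per gene and well, deposited by the authors as whole counts with no normalization, were read for 27297 gene entries in 1536 wells. The deposited sort record gives channel values as log10 numbers for fluorescence and as linear intensity values for scatter, per the file headers and the values. The submitters' processing notes name bcl2fastq 2.15.0.4, cutadapt, STAR, featureCounts, DESeq2 and Bismark 0.19.0 and the builds mm9 and mm10, with no role given; how reads became UMIs was not stated in the sources used here. In all, 106 wells without a sort record were left out. The 12 bulk samples and 4 bisulphite samples were not analysed here.

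Cells were ranked by Alexa Fluor 700 within each plate, and UMIs of the highest, middle and lowest cells were summed per plate, giving 89158 to 128648 UMIs for each high or low sum. Doublets were not called. Genes were filtered with filterByExpr, scaled by TMM and tested with edgeR 4.0.16 (R 4.3.3, limma 3.58.1) by the quasi-likelihood F test, with plate as a block, the 3 sides in 1 fit and Benjamini-Hochberg adjustment. Single values were tested with an exact permutation test (two-sided, flipping signs) over 4 plates. High and low sums of a plate share that plate, per the sort record, and their deviations from the side means correlated by 0.209 to 0.593. The test was checked on simulated data. Named genes were the 10 largest called changes in each direction, called members of the lists, and the marker and gate genes. Members and lists were chosen with earlier results of these data known. Alternatives covered DESeq2 1.42.0, scaling, filters, the block, the share of cells, depth, other dyes and each plate left out. Some named genes that this rule takes are not reported here.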

Additional observations from a re-analysis of the deposited data

Results flagged for a closer look

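In 7 of 126 sets of 4 plate values, 1 plate lay far from the others; chance alone gives about 1 in 20. The log2 difference of Itsn1 was 1.05 in plate 2 and 1.53 to 1.61 in the others. Eif4a1 was at -1.18 in plate 4 and at -0.43 to -0.33 elsewhere. Itga2b was at -0.53 in plate 2, against -1.98 to -1.88. Txn1 was at -0.11 in plate 2, against -0.49 to -0.44. Rpl30 was at -0.40 in plate 2, against 0.60 to 0.68. The share of record group 2 was 19.2 points higher in high cells of plate 5, against 1.41 to 4.35 points. The share of record group 7 was 7.04 points higher in plate 2 and from -2.78 to -1.45 points elsewhere.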

How the results depend on the processing

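Plates are repeats of a single pool, and 4 of them cannot give a permutation p under 0.05. In place of 192 called genes (109 higher, 83 lower), DESeq2 called 91 (63, 28), a filter at 50 UMIs 109 (67, 42), the highest and lowest 10% of cells 121 (78, 43) and no filter 159 (72, 87). Without the replicate block that pairs the sides of a plate, 14 (9, 5) were called, all 14 among the 192. Matching on UMIs gave 41 (27, 14), leaving out the cells richest in S and G2/M UMIs 43 (35, 8), correction for scatter 112 (77, 35) and for CFP 114 (80, 34). Correction for APC and APC-Alexa Fluor 750, or for the latter alone, gave 14 (13, 1). Cells below and above its median gave 15 (13, 2) and 12 (11, 1). With 1 plate left out, 109 to 146 genes were called, 68 to 83 higher and 41 to 63 lower, and 43 of 96 named genes were called whichever plate was left out.

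Leaving out 1 plate, the log2 difference in median UMIs was -0.231 to -0.141, channels of 1 direction numbered 7 to 9, record groups 5 to 8 (8 without plate 2) and the difference in the share of cells with a Ly6a UMI was 2.57 to 5.68 points. Of 96 named called genes, 84 kept their direction in each setting that tested them. Log2 fold changes turned as follows, and the cause was not tested. After correction for both channels, Ube2c was at 1.03, Tk1 at 0.45, Cks1b at 0.32, Cdca8 at 0.11, Birc5 at 0.085 and Gnb2l1 at -0.0019. After correction for APC-Alexa Fluor 750 alone, Ube2c was at 0.74, Tk1 at 0.41, Cks1b at 0.21, Birc5 at 0.018, Gnb2l1 at -0.0085 and Trim47 at -0.032. Trim47 was at -0.46 below the median of that channel. Above it, Ube2c was at 0.71, Cks1b at 0.053, Txn1 at 0.033, Ncapd2 at 0.00056, Malat1 at -0.018, Rpl14 at -0.040 and Kit, not called in the first place, at -0.054. Rps18 was at -0.0037 without the cells richest in S and G2/M UMIs.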
